A study of Mus musculus with 3 samples.

Results

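The regions examined were the loci of 8 genes that together set the G1 restriction point: the kinases *Cdk6* and *Cdk4*, the D-type cyclins *Ccnd1*, *Ccnd2* and *Ccnd3*, and the pocket proteins *Rb1*, *Rbl1* and *Rbl2*. They were chosen by name and not by any measured value. Peaks that overlapped a gene body extended by 20 kb on both sides were collected from 4 ATAC-seq peak lists, and overlapping peaks were merged. This gave 81 regions of 50965 in all. ATAC-seq marks open chromatin, which is the chromatin that a transposase can reach and cut.

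The lines compared were pre/pro-B cells of the mouse, each started from bone marrow transduced with a retrovirus that carries the BCR-ABL(p185) oncogene. Wildtype lines came from *Cdk6*+/+ mice and K43M lines from *Cdk6*KM/KM mice, whose CDK6 has lost kinase activity on both alleles. All lines carried BCR-ABL(p185), so the comparison isolates no effect of the oncogene. Each genotype had 2 lists, 1 per line, and each line is a separate transformed population that can differ from the others for reasons other than *Cdk6*. WT line 2, K43M line 1 and K43M line 2 are labelled samples, numbered as in their labels. The other wildtype list carries no sample label, was assigned from the series' design text and is called WT unnumbered. The age of the mice was not given in the sources used here.

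D-type cyclins bind CDK4 or CDK6 and bring them to the pocket proteins. Hypophosphorylated pocket proteins hold E2F transcription factors in check, and phosphorylation by cyclin D-CDK4/6 releases E2F and lets cells enter S phase. B-cell precursors rely on cyclin D3, and CDK6 is the more prominent of the kinases in many blood cells. CDK6 also acts at chromatin, partly without its kinase activity.

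The lists held between 33038 and 39038 peaks, most in K43M line 1. The genome-wide background, which follows sequencing depth, came to 65.3 read ends per 10 kb for WT unnumbered, 56.7 for WT line 2, 55.1 for K43M line 1 and 48.4 for K43M line 2. Of 8 B-lineage genes, all had a promoter peak in 3 lists and 6 had one in K43M line 2, which lacked peaks at *Cd79b* and *Rag1*. *Pax5* and *Ebf1* had one in every list. Of 7 markers of other blood lineages, *Cd3d* had a promoter peak in WT line 2 and the others had none in any list, and 3 markers of other tissues had none.

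Sequences of the regions on which the comparison turns are given first, each of the same length, read on the strand of the gene from GRCm38 (mm10). Capitals mark matches to the motifs named further on, except in the first sequence. The first is the open part of *Cdk6* exon 1 at chr5:3344429-3344629, shown because its capitals mark codon 43, the codon that the K43M allele changes, at chr5:3344493-3344495.
Cdk6 exon 1: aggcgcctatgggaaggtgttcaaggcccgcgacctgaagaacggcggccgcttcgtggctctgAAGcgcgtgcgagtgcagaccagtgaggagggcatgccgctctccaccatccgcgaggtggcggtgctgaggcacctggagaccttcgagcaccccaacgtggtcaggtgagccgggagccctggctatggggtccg
The summit of this region lay 35 bp from the codon, and the sequence printed is that of the reference, since peak lists do not show the allele. The next is a region upstream of *Ccnd1* (chr7:144941473-144941673), shown because both K43M lists had a lower summit there than either wildtype list.
Ccnd1 upstream: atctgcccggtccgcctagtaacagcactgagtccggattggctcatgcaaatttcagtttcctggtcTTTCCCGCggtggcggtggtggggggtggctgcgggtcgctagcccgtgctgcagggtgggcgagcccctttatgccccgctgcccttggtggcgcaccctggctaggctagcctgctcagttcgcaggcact
The capitals in the upstream sequence are an E2F motif. The *Rbl1* promoter (chr2:157204135-157204335) and a region in *Rb1* intron 17 (chr14:73222494-73222694) are shown because the read ends in 10 kb around the former and the summit pileup of the latter were higher in K43M lists.
Rbl1 promoter: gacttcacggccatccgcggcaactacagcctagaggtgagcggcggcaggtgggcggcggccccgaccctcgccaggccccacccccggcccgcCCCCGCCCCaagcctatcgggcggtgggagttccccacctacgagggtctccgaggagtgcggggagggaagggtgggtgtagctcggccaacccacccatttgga
Rb1 intron 17: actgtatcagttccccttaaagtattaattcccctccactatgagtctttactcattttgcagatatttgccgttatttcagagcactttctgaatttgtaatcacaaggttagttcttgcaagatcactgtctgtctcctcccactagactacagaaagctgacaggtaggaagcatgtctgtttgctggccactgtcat
The capitals in the *Rbl1* sequence are an SP1 motif. Last come a region of *Cdk6* intron 1 (chr5:3383662-3383862) and a second region of *Rb1* intron 17 (chr14:73253944-73254144), both listed in K43M lists alone, and the sequence just upstream of *Cdk4* (chr10:127063333-127063533), whose promoter had the highest summits among the promoters of the 8 genes.
Cdk6 intron 1: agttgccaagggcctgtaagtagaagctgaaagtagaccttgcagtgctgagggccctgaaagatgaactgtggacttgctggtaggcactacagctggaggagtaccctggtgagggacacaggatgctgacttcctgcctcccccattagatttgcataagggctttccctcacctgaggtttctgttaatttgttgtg
Rb1 intron 17, second region: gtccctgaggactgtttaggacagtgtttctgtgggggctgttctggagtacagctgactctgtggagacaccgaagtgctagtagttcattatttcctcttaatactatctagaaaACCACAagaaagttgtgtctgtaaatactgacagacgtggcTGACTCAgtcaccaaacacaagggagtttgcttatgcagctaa
Cdk4 upstream: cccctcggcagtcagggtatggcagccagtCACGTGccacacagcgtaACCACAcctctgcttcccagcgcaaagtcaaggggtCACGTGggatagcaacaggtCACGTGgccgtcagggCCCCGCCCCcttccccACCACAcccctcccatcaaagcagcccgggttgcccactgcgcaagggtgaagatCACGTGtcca
The second *Rb1* sequence holds a RUNX and an AP-1 motif. The *Cdk4* sequence holds 4 E-boxes (CACGTG, the motif of MYC and its partners), an SP1 motif and RUNX motifs.

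All 8 genes had a promoter peak in all 4 lists. A promoter was the window from 2000 bp before to 200 bp after any annotated transcription start, and 47.5% of 22028 protein-coding genes had such a peak in every list. Of the 81 regions, 18 overlapped a promoter of the 8 genes, 17 a promoter of another gene, 31 lay within the genes and 15 in the flanks. In all, 42 regions had a peak in every list, 7 in both K43M lists and in neither wildtype list, none showed the reverse pattern of wildtype alone, 9 were found in other combinations and 23 in 1 list. Among all regions of the genome, 7.64% were strictly K43M-only and 4.51% strictly WT-only. With 1 list left to stand for its genotype, 15 regions of the loci were K43M-only without K43M line 1 and 22 without K43M line 2, and the WT-only count was 1 without WT unnumbered, without K43M line 1 or without K43M line 2 and 2 without WT line 2.

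The number of regions with a peak was 48 in WT unnumbered, 49 in WT line 2, 72 in K43M line 1 and 59 in K43M line 2. Both K43M lists thus held more regions than either wildtype list. The excess differed between loci. *Rb1* had 8, 8, 14 and 13 regions in this order of the lists, *Ccnd1* had 4, 4, 7 and 6, *Ccnd3* had 12, 13, 15 and 14, and *Rbl1* had 2, 2, 4 and 4. At these 4 loci the genotypes did not overlap. The share of such loci over the genome is not given here, so this count does not set the loci apart. Over the genome, too, both K43M lists were longer, with 39038 and 34752 peaks against 33038 in WT unnumbered and 34248 in WT line 2. *Cdk6* had 10, 9, 18 and 10 regions, so that K43M line 1 alone stood apart. *Cdk4* with 5, 5, 4 and 5, *Ccnd2* with 5, 6, 7 and 5 and *Rbl2* with 2, 2, 3 and 2 overlapped between genotypes. With 2 lists against 2, an exact permutation test cannot go below p = 0.333, so no test of these counts was made. K43M line 1 was the longest list, and 15 of the 23 regions found in 1 list were in it. Across the genome 10.5% of all regions were listed in K43M line 1 alone.

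**Figure D1:**
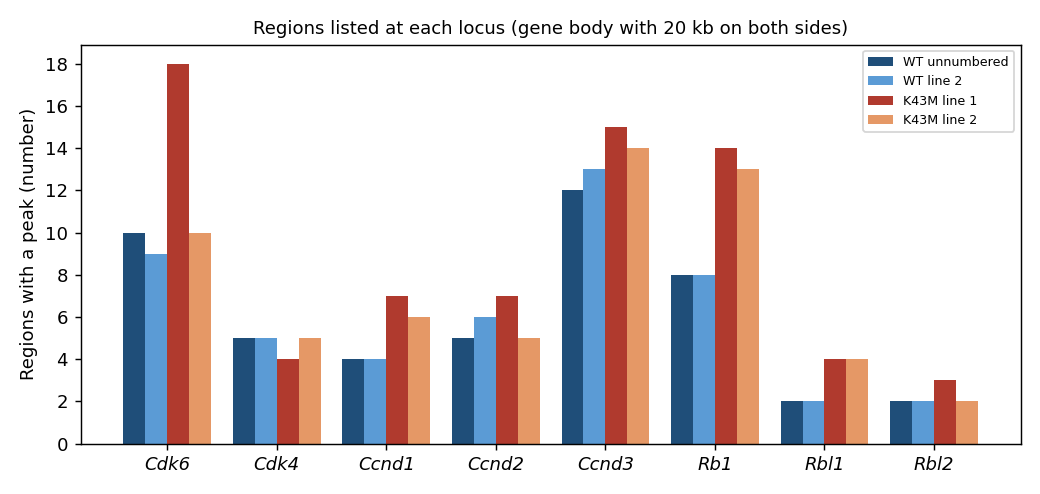
Number of regions with a peak at each locus, 1 bar per list, for the 8 genes with 20 kb on both sides. *Cdk6* stands at 18 in K43M line 1 against 9 to 10 in the other lists, and *Rb1* at 13 and 14 in the K43M lists against 8 in both wildtype lists.

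*Cdk6* (ENSMUSG00000040274.11, chr5:3341485-3531008, plus strand) spans 189524 bp and 7 exons. For each gene, the main start and the numbers of exons and introns are those of its main transcript. This was the protein-coding transcript with the longest coding sequence, and the first by identifier in a tie. Summit pileup, the number of read ends within 100 bp of the highest point of a peak, was used as the height of a region. The region that holds exon 1 and codon 43 (chr5:3343324-3344688) had a pileup of 36 in WT unnumbered, 28 in WT line 2, 39 in K43M line 1 and 23 in K43M line 2. The K43M lists enclosed both wildtype values, before and after each list was centred on its median pileup. The difference of K43M minus wildtype in the centred values was 0.02 on the log2 scale (SE 0.27, limma adjusted p = 0.979). A second promoter region, over the first annotated start (chr5:3341114-3341832) and with its summit 2611 bp before the main start, had pileups of 32, 28, 32 and 22 and a difference of -0.07 (SE 0.27, limma adjusted p = 0.931).

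Between these promoter regions 2 further ones were listed in some lists. The region at chr5:3342531-3342971 had a pileup of 27 in WT unnumbered and 33 in K43M line 1, and the region at chr5:3341993-3342283 had 26 in K43M line 1. A start inside intron 3 (chr5:3470909-3471122) had a peak in K43M line 1, with a pileup of 14. The promoters of *Cdk6* were thus open in every line, with more separate peaks in the lists with the higher local coverage. In the 10 kb around the main promoter summit there were 444 read ends in WT unnumbered, 348 in WT line 2, 460 in K43M line 1 and 261 in K43M line 2.

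The introns of *Cdk6* held most of its other regions. The highest of them in every list lay in intron 4 (chr5:3494088-3495114), with pileups of 37, 45, 55 and 38, a difference of 0.27 (SE 0.22, limma adjusted p = 0.555), and AP-1 and RUNX motifs within 100 bp of the summit. A region in intron 3 (chr5:3460473-3461747) had 13, 28, 33 and 28, where WT unnumbered alone was low, and a region in intron 2 (chr5:3419947-3420816) had 22, 26, 40 and 19. Their differences of 0.78 (SE 0.36, limma adjusted p = 0.252) and 0.31 (SE 0.32, limma adjusted p = 0.66) did not pass. The pair in introns 3 and 2 was named after its values were seen. The K43M-only regions were small. In intron 1 (chr5:3383657-3384187) the pileup was 17 in K43M line 1 and 13 in K43M line 2. In intron 3, in the promoter window of the predicted gene *Gm17590* (chr5:3472846-3473103), it was 16 and 10. The nearest peaks in the wildtype lists lay between 11476 and 36256 bp away. Among wildtype peaks with a background within 5% of theirs, the lowest listed pileups were below those of the K43M lists. In WT unnumbered and WT line 2 they were 9 and 6 for the former and 7 and 8 for the latter. The wildtype background at the K43M-only regions themselves was not known. Of the 8 *Cdk6* regions found in 1 list, 6 were in K43M line 1. The median 10-kb background of the regions of chromosome 5, relative to that of the whole list on the log2 scale, was 0.18 in WT unnumbered, -0.02 in WT line 2, 0.38 in K43M line 1 and 0.10 in K43M line 2. It was highest in the list with the extra *Cdk6* regions, and its part in them was not tested.

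**Figure D2:**
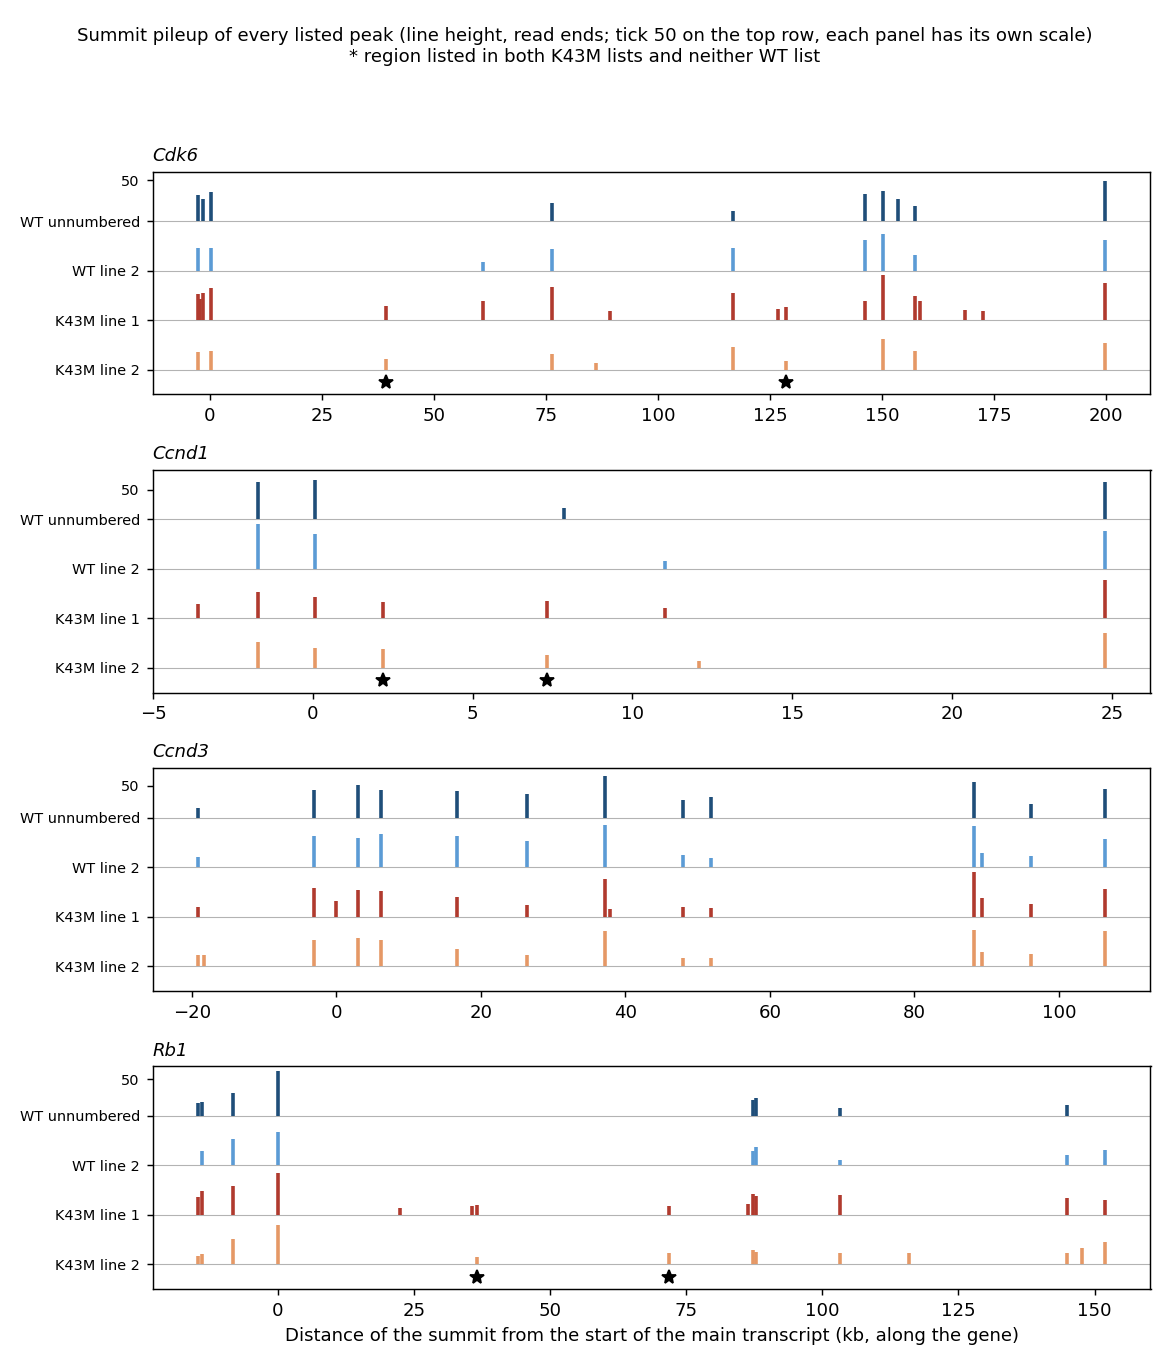
Summit pileup (line height, read ends) of every listed peak at 4 of the loci, by list, against the distance of the region's summit from the start of the main transcript along the gene (kb). Stars mark the 2 regions of *Cdk6*, *Ccnd1* and *Rb1* each that were listed in both K43M lists and in neither wildtype list, and *Ccnd3* has none.

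*Cdk4* (ENSMUSG00000006728.12, chr10:127063534-127067920, plus strand), the close relative of *Cdk6*, is a compact gene of 4387 bp with 1 promoter region (chr10:127063128-127064050). Its summit lay in the untranslated part of exon 1 and had pileups of 87, 90, 105 and 87. By -log10 q these peaks were between the 87.3rd and the 97.4th percentile of their lists. The difference was 0.22 (SE 0.12, limma adjusted p = 0.363). The centred pileups were 79.4, 91.6, 98.4 and 99.9, so both K43M values were above both wildtype values, but the difference did not pass. The region outside promoters with the highest mean pileup, among those with a peak in every list, lay downstream (chr10:127076100-127076444), with pileups of 41, 43, 43 and 39 and a difference of 0.07 (SE 0.21, limma adjusted p = 0.902). The other regions of this locus with a peak in every list lay in promoter windows of its neighbours, *Tspan31* and *Agap2*, and none of the 4 tested regions passed. Their differences were between 0.07 and 0.33.

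*Ccnd1* (ENSMUSG00000070348.5, chr7:144929931-144939925, minus strand), which codes for cyclin D1, had the only promoter region of the 8 genes whose summit pileup passed as lower in K43M lists. The region over its start and exon 1 (chr7:144939567-144940654) had a summit pileup of 66 in WT unnumbered, 59 in WT line 2, 37 in K43M line 1 and 34 in K43M line 2. The genotypes did not overlap. The difference was -0.71 on the log2 scale (SE 0.19, limma adjusted p = 0.0406). The region 1704 bp upstream of the main start (chr7:144941203-144941794) had 64, 76, 44 and 43, again without overlap, and a difference of -0.57 (SE 0.18, limma adjusted p = 0.0875) that did not pass. It passed without WT unnumbered (-0.78, adjusted p = 0.0333) and without K43M line 2 (-0.71, adjusted p = 0.0168).

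The lower signal at *Ccnd1* was not limited to the summit. In the 10 kb around the promoter summit there were 709 read ends in WT unnumbered, 728 in WT line 2, 399 in K43M line 1 and 447 in K43M line 2. Both K43M counts were below both wildtype counts. A limma fit of this 10-kb count gave -0.64 (SE 0.14, adjusted p = 0.0293) at the promoter and -0.67 (SE 0.14, adjusted p = 0.0264) at the upstream region, whose windows overlap and which are not separate evidence. The fold enrichment over the local background, which divides one by the other, was 4.41, 3.86, 4.23 and 3.52 at the promoter, and its difference was -0.09 (limma adjusted p = 0.891). At the upstream region it was 4.35, 5.0, 5.18 and 4.56, with a difference of 0.06 (limma adjusted p = 0.939), opposite in sign to that of the summit pileup. Chromosome 7 as a whole had a like background in the 4 lists, between 0.09 and 0.14 on the log2 scale.

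The call at the *Ccnd1* summit rests on few lines. Without WT unnumbered the adjusted p in limma was 0.134, without WT line 2 it was 0.105, without K43M line 1 it was 0.0594 and without K43M line 2 it was 0.0154, with differences between -0.79 and -0.62. In the 10-kb count it was 0.0513 without WT unnumbered, 0.117 without WT line 2, 0.0456 without K43M line 1 and 0.00629 without K43M line 2. At the upstream region the 10-kb count lost its call without WT line 2, with an adjusted p of 0.102.

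Within and behind *Ccnd1* the K43M lists held peaks that the wildtype lists did not. In intron 2 (chr7:144937594-144937970) the pileup was 28 in K43M line 1 and 32 in K43M line 2. In the untranslated part of exon 5 (chr7:144932412-144932679) it was 30 and 22. Peaks were called against the local background. At the promoter, the nearest wildtype peak to the intron 2 region, this background was higher in the wildtype lists. Among the peaks of WT unnumbered with a 10-kb background within 5% of that of its nearest peak, the *Ccnd1* promoter, the lowest listed pileup was 34, and in WT line 2 it was 36. The pileups of 28 and 32 in intron 2 were below both, but pileups were not scaled here for the depth of the lists, which differed. The comparison thus cannot tell whether such a peak would have been listed in wildtype. The absence of the region from the wildtype lists does not show that the wildtype lines were less open there. At the exon 5 region the same measure gave 12 and 8, below the K43M pileups, from nearest peaks 355 bp and 3428 bp away. The background of these peaks was 165 in WT unnumbered and 94 in WT line 2. At the exon 5 region itself it was 228 in K43M line 1 and 202 in K43M line 2, so it was not higher in the wildtype peaks. WT unnumbered had a separate peak there in the same exon (chr7:144931850-144932057), with a pileup of 20.

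**Figure D3:**
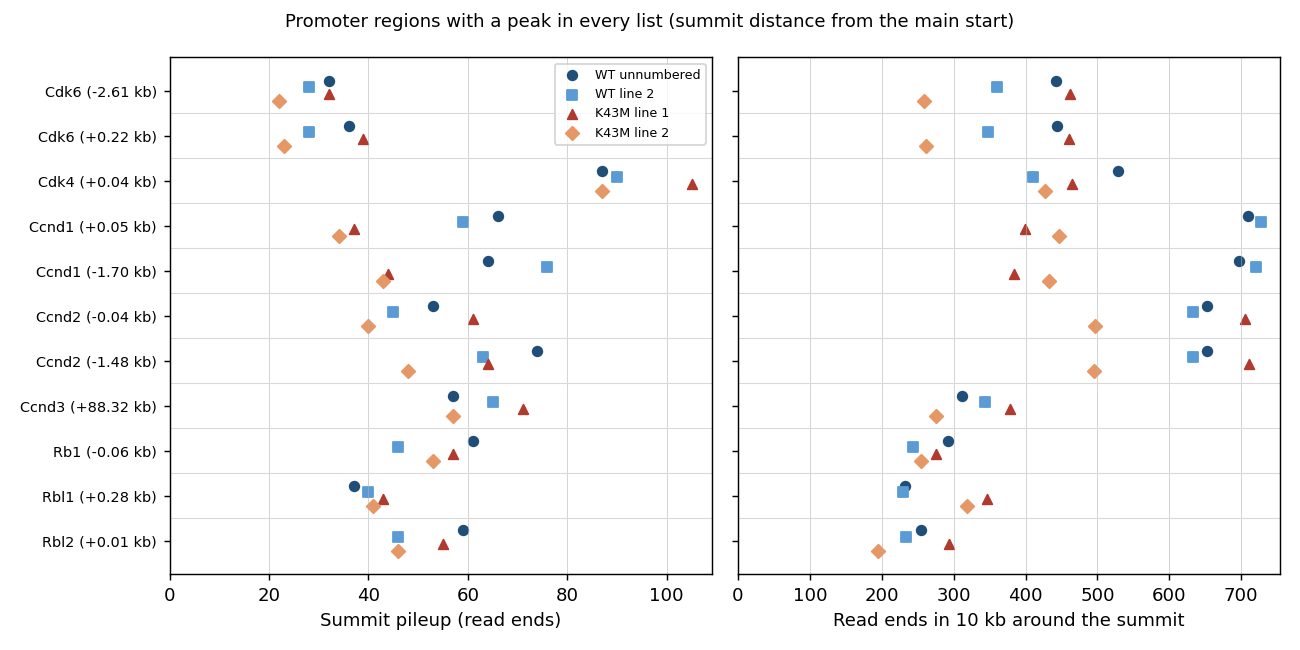
Summit pileup (left, read ends) and read ends in the 10 kb around the summit (right) in each list, for the 11 promoter regions of the 8 genes with a peak in every list, 1 point per list, with the distance of the summit from the main start. The *Ccnd1* regions have wildtype points to the right of both K43M points in both panels, and *Rbl1* has K43M points to the right of both wildtype points in the 10-kb count.

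*Ccnd2* (ENSMUSG00000000184.12, chr6:127125162-127152193, minus strand), for cyclin D2, had a pair of promoter regions whose differences did not pass. The region at the main start (chr6:127150922-127151360) had pileups of 53, 45, 61 and 40, and the broader one 1476 bp upstream (chr6:127151652-127152795) had 74, 63, 64 and 48. The genotypes overlapped at the main start. At the broader region they overlapped in the pileups but not in the centred values of 67.6, 64.1, 60.0 and 55.1, where both K43M values were lower. The differences were 0.12 (SE 0.19, limma adjusted p = 0.787) and -0.19 (SE 0.15, limma adjusted p = 0.553). The 10-kb counts at the main start were 652, 633, 705 and 496, with the K43M lists on both sides of the wildtype lists. A flanking region 10865 bp upstream (chr6:127162783-127163215) with an AP-1 motif had the highest mean pileup outside promoters among regions with a peak in every list, with 17, 12, 24 and 17 and a difference of 0.61 (SE 0.32, limma adjusted p = 0.322). A higher flanking region, nearer the gene (chr6:127154983-127155220), was listed in K43M line 1 alone, with a pileup of 47, and was named after its value was seen.

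*Ccnd3* (ENSMUSG00000034165.16, chr17:47505051-47599691, plus strand), for cyclin D3, had 12 regions in every list, the most of the 8 loci. The promoter peak shared by all lists did not lie at its first annotated start. The region at that start (chr17:47504955-47505154) was listed in K43M line 1 alone, with a pileup of 25. The promoter region with a peak in every list (chr17:47593213-47594049) lay 88318 bp downstream of the main start. It was 10 bp from a start inside intron 2 of the main transcript, with pileups of 57, 65, 71 and 57 and an SP1 motif. *Ccnd3* has 21 annotated transcripts with 19 starts, and places by intron depend on the transcript taken as main. Its difference was 0.17 (SE 0.16, limma adjusted p = 0.633). A smaller region next to it (chr17:47594250-47594589) had 22 in WT line 2, 29 in K43M line 1 and 23 in K43M line 2.

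Intron 1 of *Ccnd3* held a chain of open regions. The highest region outside promoters at this locus lay in it (chr17:47541851-47542702), with pileups of 66, 67, 60 and 56 and a difference of -0.09 (SE 0.16, limma adjusted p = 0.816). It also held the region with the most negative difference at the 8 loci, which, 26365 bp from the main start (chr17:47531230-47531942), had pileups of 37 in WT unnumbered, 42 in WT line 2, 18 in K43M line 1 and 18 in K43M line 2. The genotypes did not overlap, but the difference of -1.02 (SE 0.29) had a limma adjusted p of 0.0511 and did not pass. It passed without WT unnumbered (-1.19, adjusted p = 0.0459) and without K43M line 2 (-1.17, adjusted p = 0.034). Of the other intron 1 regions, that at chr17:47521349-47522413 had 42, 49, 31 and 27, and that at chr17:47553018-47553490 had 28, 19, 15 and 13, both without overlap. Their differences of -0.54 (SE 0.24, limma adjusted p = 0.222) and -0.62 (SE 0.32, limma adjusted p = 0.312) did not pass. The region at chr17:47556572-47557393 had 32, 15, 14 and 13, where WT unnumbered alone stood well apart. Its difference of -0.59 (SE 0.35, limma adjusted p = 0.392) did not pass either. The share of regions without overlap over the genome is not given here. The regions nearest the start, at chr17:47507956-47508549 and chr17:47511079-47511559, had 52, 46, 42 and 44 and 44, 52, 41 and 41, with differences of -0.08 and -0.12. These intron 1 regions, other than the highest, were named after their values were seen.

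*Rb1* (ENSMUSG00000022105.6, chr14:73183673-73325822, minus strand), the gene of the retinoblastoma protein, had a promoter region (chr14:73324578-73326303) with pileups of 61, 46, 57 and 53 and a difference of 0.16 (SE 0.18, limma adjusted p = 0.689). An E2F motif lay within 100 bp of its summit. The only region of the 8 loci whose summit pileup passed as higher in K43M lists lay in intron 17 (chr14:73222371-73222983). Its pileups were 11 in WT unnumbered, 8 in WT line 2, 27 in K43M line 1 and 16 in K43M line 2. The genotypes did not overlap, and the difference was 1.25 (SE 0.32, limma adjusted p = 0.0348). The 95% Poisson intervals of the pileups, which cover counting error only, ran from 3.5 to 15.8 in WT line 2 and from 9.1 to 26.0 in K43M line 2, and so overlapped. The wildtype pileups were near the lowest that were listed, and by -log10 q at the 8.7th and the 2.9th percentile of their lists. Without WT line 2 the adjusted p was 0.104 and without K43M line 1 it was 0.096. It was 0.0313 without WT unnumbered and 0.0119 without K43M line 2, and the differences were between 1.02 and 1.48.

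Further along *Rb1*, more of the weak regions were listed in K43M lists. The K43M-only regions were one in intron 17 (chr14:73253567-73254207), with pileups of 12 and 15, and one in intron 4 within the promoter window of an internal start (chr14:73289182-73289668), with 14 and 10. At the background of the nearest wildtype peaks, which lay between 14386 and 34934 bp away, the lowest listed pileups in WT unnumbered and WT line 2 were 13 and 11 for the former and 17 and 15 for the latter. The K43M pileups were on both sides of these values at the former and below them at the latter. Those wildtype peaks lay outside the 10-kb windows of the regions, however. In K43M line 1 and K43M line 2 the background at the regions, per 10 kb, was 55.1 and 80.0 for the former and 70.0 and 64.0 for the latter. The value of 55.1 is the genome-wide background of K43M line 1, so the count in 10 kb there was not above it. The wildtype background there was not known, so this comparison cannot tell whether the wildtype lines were less open. A start inside intron 17 (chr14:73239484-73239742) had a peak in K43M line 1, with a pileup of 15. The region outside promoters with the highest mean pileup among those with a peak in every list (chr14:73238497-73239181), also in intron 17, had 22, 20, 29 and 20 and a difference of 0.31 (SE 0.3, limma adjusted p = 0.642). The median 10-kb background of chromosome 14 was -0.12 in both wildtype lists, 0.03 in K43M line 1 and -0.07 in K43M line 2 on the log2 scale. It was higher in the K43M lists, as was the number of *Rb1* regions, and its part in that number was not tested.

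*Rbl1* (ENSMUSG00000027641.13, chr2:157145893-157204534, minus strand) codes for the pocket protein p107. Its promoter region (chr2:157203789-157205125) had summit pileups of 37, 40, 43 and 41, with a difference of 0.23 (SE 0.22, limma adjusted p = 0.625). The 10-kb count around it was 233 in WT unnumbered, 229 in WT line 2, 346 in K43M line 1 and 318 in K43M line 2. It thus rose around the promoter without overlap, by 0.65 (SE 0.12, limma adjusted p = 0.0172), while the summit itself did not pass. The fold enrichment of the summit over this background was 6.71, 7.35, 5.56 and 5.71, lower in both K43M lists, and its difference of -0.32 (limma adjusted p = 0.583) did not pass. Without WT unnumbered the adjusted p of the 10-kb count was 0.0788, and without each of the other lists it was between 0.0191 and 0.046. The K43M-only region at this locus (chr2:157129705-157130108) lay downstream in a promoter window of *Samhd1*, with pileups of 20 and 18. At the background of the nearest wildtype peaks, which lay 4353 and 4581 bp away, the lowest listed pileups were 17 and 18, near those of the K43M lists.

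*Rbl2* (ENSMUSG00000031666.15, chr8:91070057-91123844, plus strand), the gene of the pocket protein p130, had 3 regions, the fewest of the 8. Its promoter region (chr8:91069721-91070874) had pileups of 59, 46, 55 and 46 and a difference of 0.06 (SE 0.18, limma adjusted p = 0.91). The strongest region of all 8 loci, also named for its value, was at this locus but in the promoter window of *Aktip* (chr8:91133499-91134516), with pileups of 127, 118, 132 and 106, at the 99.8th percentile by -log10 q or above and with ETS and NFY motifs.

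Over the 8 loci, 42 regions with a peak in every list were tested for summit pileup among 21012 of the genome. Of these, 1 was higher in K43M lists, the *Rb1* intron 17 region, beside 2.29% of all regions, and 1 was lower, the *Ccnd1* promoter, beside 1.93% of all regions. The median difference was 0.09 over the 42 regions and 0.01 over all regions. Of all regions, 482 were higher and 405 lower. Scaled by the genome-wide background in place of the median, 703 were higher and 194 lower, the median difference was 0.22 over the 42 regions and 0.14 over all regions, and 7 of the 42 turned in sign. Under this scaling the *Rb1* region passed, at 1.38 (limma adjusted p = 0.0245), and the *Ccnd1* promoter did not, at -0.58 (limma adjusted p = 0.106). Without K43M line 1 no region of the loci passed. Without WT line 2 the *Cdk6* intron 3 region passed in place of that of *Rb1*, at 1.41 (limma adjusted p = 0.0106), and no region was lower. For the 10-kb count, tested in 18890 regions that exceeded the genome-wide background in every list, 39 regions of the loci were tested. The *Rbl1* promoter was higher, beside 3.58% of all regions, and both *Ccnd1* regions were lower, beside 3.7% of all regions. Counts of 1 and 2 are near what these shares give for this number of regions, so they do not set the 8 loci apart from the rest of the genome.

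**Figure D4:**
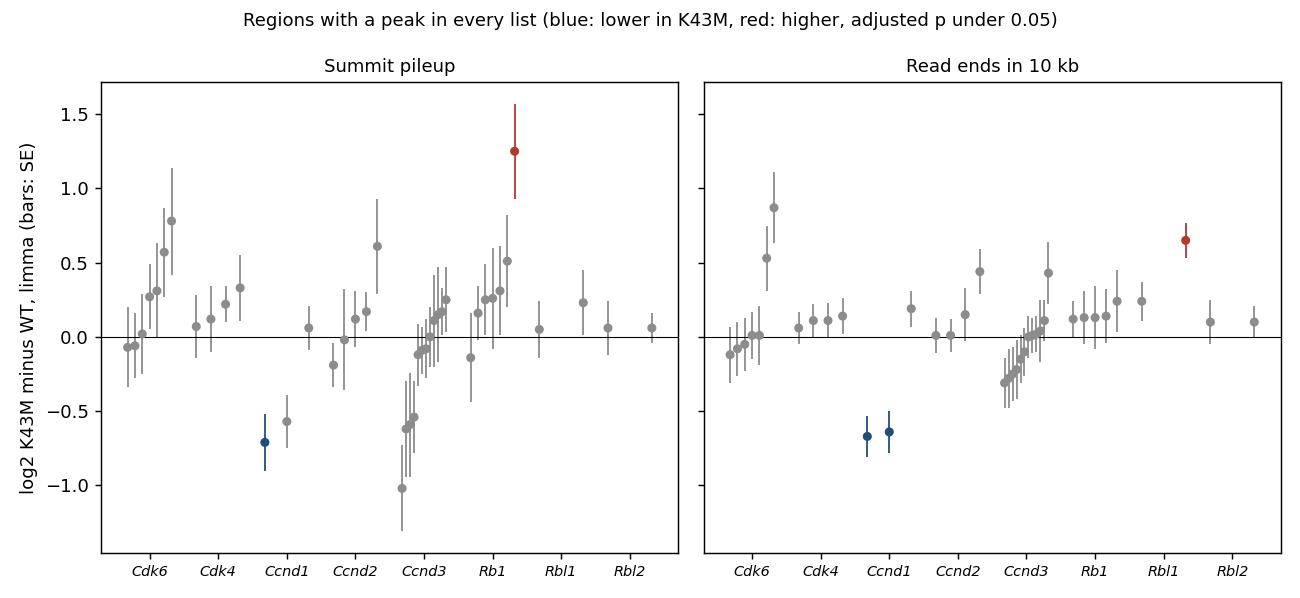
Fitted log2 difference of K43M minus wildtype with its SE for each region of the 8 loci with a peak in every list, for summit pileup (left) and for read ends in 10 kb (right), ordered by size within each gene. Blue and red mark differences that passed at an adjusted p under 0.05, which are 1 *Ccnd1* and 1 *Rb1* region on the left and 2 *Ccnd1* regions and 1 *Rbl1* region on the right.

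Pileups count read ends in a window of fixed length and can be set side by side between genes. With the highest promoter region of each gene taken in each list, *Cdk4* was highest and *Cdk6* lowest of the 8 genes in all 4 lists, with 87 against 36, 90 against 28, 105 against 39 and 87 against 23. The range of *Cdk4* over the lists overlapped no other. Those of *Ccnd1*, *Ccnd2*, *Ccnd3*, *Rb1* and *Rbl2* overlapped each other, and the range of *Rbl1*, between 37 and 43, overlapped that of *Cdk6*. Over the 4 lists, the promoters with the centred log2 pileups most like those of *Cdk6*, among 10471 genes, were *Pde12* with 35, 28, 38 and 24 and the neighbours *Cd3eap* and *Ppp1r13l*, which share one region with 38, 28, 42 and 23. The measure was the summed squared difference, which was 0.00683 for *Pde12* and 0.0175 for the other two.

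Other genes of the pathway were mostly open in all lines. Of 35 genes, 31 had a promoter peak in every list, beside 47.5% of all protein-coding genes. All 3 genes of the CDK-activating kinase, all 6 of the MuvB complex and its partners, which repress cell-cycle genes together with p107 and p130 or activate them with B-MYB, and all 4 for turnover of D-type cyclins were among them. Of the 7 CDK inhibitors, 6 had one in every list and *Cdkn1c*, for p57, had one in K43M line 1 alone. Of the 10 E2F and DP factors, 8 had one in every list, *E2f2* had one in WT unnumbered alone and *E2f6* lacked one in WT line 2. Of the next cyclins and their kinase, 4 of 5 had one in every list, and *Ccna1*, a cyclin of the germ line, had none in any. No gene of the list differed between genotypes in both lists of each.

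Motifs were counted on both strands within 100 bp of the summit in all 81 regions, and a base could count for more than 1 motif. E2F motifs (TTTCCCGC or TTTGGCGC) were in 2 regions, at *Ccnd1* upstream and at the *Rb1* promoter, beside 0.749% of all regions. SP1 motifs (GGGGCGGGG) were in 3, all at promoters, of *Cdk4*, *Ccnd3* and *Rbl1*, beside 5.94%. E-boxes (CACGTG) were in 4, beside 5.09%. Among motifs of factors of the B lineage and of signalling, RUNX (TGTGGT) was in 20 regions beside 22.5%, EBF (CCCNNGGG) in 13 beside 15%, AP-1 (TGANTCA) in 8 beside 7.61% and STAT (TTCNNNGAA) in 5 beside 6.79%. All 8 regions with an AP-1 motif lay outside the promoters of the 8 genes, but only 18 of the 81 regions overlapped those promoters. The shares of motifs inside and outside promoters over the genome are not given here. NFY (CCAATCA or CCAATGA) was in 4 beside 6.78%, ETS (CCGGAAGT) in 1 beside 2.21%, and NRF-1 and CTCF in none beside 0.582% and 3.98%. GC content within 100 bp of the summit was between 58.7% and 82.1% at the 11 promoter regions with a peak in every list, where the median of all regions was 52.7%.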

How the data were processed

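The data were ATAC-seq peak lists of 4 mouse lines with BCR-ABL(p185), 2 per genotype. According to the study's methods, the authors trimmed reads with Trimmomatic 0.36, mapped them to mm10 with bwa-mem 0.7.15, removed blacklisted regions, multimapping reads and reads of low mapping quality with bedtools and samtools 1.3.1, and called peaks per library with MACS2 2.1.0, with read ends extended to 200 bp and no control named. The deposited fold enrichment is a ratio of the summit to the local background of the same library. The authors' -log10 p and -log10 q and the deposited display score rank peaks within 1 list. Such lists hold no read totals. The summit pileup and the background, read ends in 10 kb or a genome-wide minimum, were recovered from the fold enrichment and -log10 p, which succeeded for 100% of peaks. Pileups carry counting error, and reads were not analysed here.

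Genes and starts came from GENCODE mouse release 21 and sequences from RefSeq GRCm38. Peaks were merged at an overlap of 1 bp. Log2 pileups of regions with a peak in every list were centred on the median of each list and fitted with limma 3.58.1 (intensity trend, R 4.3.3), with Benjamini-Hochberg adjustment over all regions and a threshold of 0.05. The fit of 10-kb counts and the comparison with the lowest listed pileup were added after seeing the data. The latter used pileups that were not scaled for depth. Nothing says whether lines came from separate mice, so p-values measure the spread between these lines. Replicate numbers mark lines. Named were the 8 genes, all their promoter regions, all genotype-only regions, all regions past the threshold, the highest region outside promoters of each locus and the 3 genes nearest to *Cdk6*. The members and lists were chosen with earlier results of these data known. Some items are not reported here. The code was tested on simulated data. Python 3.11.15, numpy 2.4.6, pandas 2.3.3, scipy 1.17.1 and pysam 0.24.0 were used.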

Additional observations from a re-analysis of the deposited data

How the results depend on the processing

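No strictly WT-only region was found at the 8 loci in the lists as deposited. There was 1 with 50 kb on both sides of the genes, and 1 to 2 when a list was left out. The strictly K43M-only regions numbered 7 with all lists and from 8 to 22 when a list was left out, with 15 without K43M line 1 and 22 without K43M line 2, where 1 list stands for its genotype. In the gene bodies alone there were 52 regions, 25 of them in every list. All 8 genes kept a promoter peak in every list under each alternative of the window, the transcripts and the peaks used. Motif matches within 50 bp of the summit were found in 18 of the regions with a peak in every list.

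For summit pileup, regions of the genome higher in K43M numbered 21 with the deposited fold enrichment, 256 with quantile normalization and 24 in limma without a trend, and those lower numbered 11, 205 and 11. Scaled by the genome-wide background, 703 were higher and 194 lower, against 482 and 405 when centred on the median. Without 1 list, from 415 to 699 were higher and from 266 to 701 lower. At the 8 loci, the count of regions higher in K43M was 0 with the fold enrichment, with quantile normalization, with a mean pileup of 20 or more, where the *Rb1* region was not tested, and without a trend, and 0 to 1 without 1 list. The count lower was 0 with the fold enrichment, with quantile normalization, with the genome-wide background and without a trend, 2 with a mean pileup of 20 or more, and 0 to 3 without 1 list. The regions that passed without 1 list were not always those of the full set. The adjusted p of the *Ccnd1* promoter was thus between 0.0154 and 0.891 over the alternatives, and that of the *Rb1* intron 17 region between 0.0119 and 0.176, with no change of direction. For the 10-kb count, without 1 list from 346 to 601 regions of the genome were higher and from 169 to 764 lower, and at the 8 loci 0 to 2 were higher and 0 to 2 lower.

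No paired analysis was possible because the groups compared share only replicate number 2, and the other wildtype list carries none. Differences at weak regions could not be measured in lists that hold no peak there, and a region can miss a list because the local background is high.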
